A study of Homo sapiens with 2 samples.

Results

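The genes described are 32 components of the ubiquitin system that were called changed after ezetimibe in SNU-449, a cell line from a human hepatocellular carcinoma. They were selected on the authors' call of change between the 2 libraries: they are the changed genes that the authors' deposited table lists under the KEGG pathway Ubiquitin mediated proteolysis, 56 in all, minus 24 that it also lists under any of 13 other pathways, among them Cell cycle and Protein processing in endoplasmic reticulum. The table holds 2238 distinct changed genes under 327 pathways, so the members are 32 of 2238. The compared cultures were 1 culture of the line treated with ezetimibe for 24 h and 1 control culture of the same line, both grown in serum-containing medium. Ezetimibe lowers blood cholesterol by blocking NPC1L1, the transporter that takes up sterols in gut and liver. Not given in the sources used here were its dose and any vehicle in the control culture. The table states only whether a gene was up or down, so the sizes of the differences and the sequencing depth are unknown, and with 1 library per condition no difference has a replicate check. Because the comparison names ezetimibe first, up was taken to mean higher in the ezetimibe culture, which no value here can check. Membership requires a gene to be called changed, so every count below is a description and carries no test.

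Ubiquitin is a small protein that is attached to other proteins in a relay. An E1 enzyme activates it, an E2 enzyme carries it, and an E3 ligase brings the E2 to a chosen substrate, which the proteasome may then degrade. RING and U-box ligases hold the charged E2 next to the substrate, HECT ligases take ubiquitin onto a cysteine of their own first, and cullin-RING ligases build a scaffold with exchangeable substrate receptors. In liver cells the system sets the lifetime of, for example, the stress factor NRF2 and of cytokine receptors.

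Of the 32 members, 23 were listed as down and 9 as up, so 28.1% had the direction up. Among all changed genes, 728 of 2238 had it, which is 32.5%. In the pathway background of 8877 genes, 25.2% were called changed, 8.20% as up and 17.0% as down; since the call chose the members, nothing is read from those shares. The members listed as up were CBLB, CUL7, KEAP1, PML, PRPF19, TRIM32, UBE2O, UBE2Z and UBOX5. By role, the 3 E1 and the 6 HECT members were listed as down, the 2 U-box members as up, and the other classes with more than 1 member were mixed. In the authors' deposited table the whole pathway had 13 genes up and 43 down of 140 (rich factor, the authors' enrichment ratio, 1.59; p = 0.00106, q = 0.012), rank 29 of 327 by p. These p and q values take genes as independent units.

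**Figure D1:**
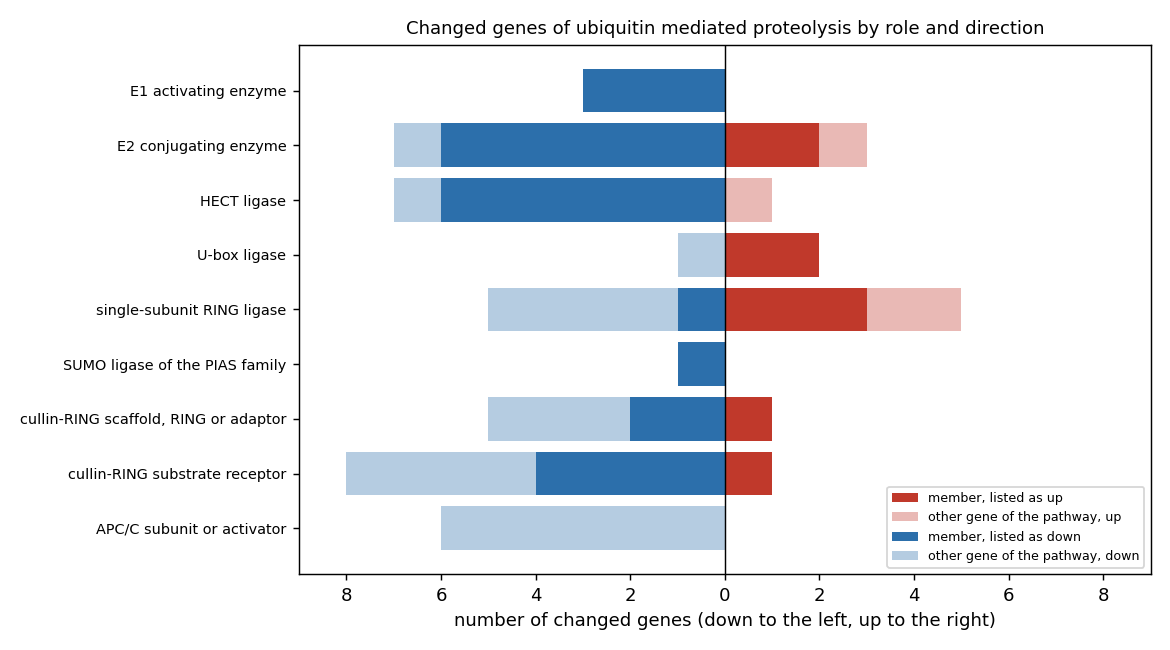
Number of changed genes of the pathway Ubiquitin mediated proteolysis by role, with genes listed as down after ezetimibe to the left of 0 and genes listed as up to the right. Full colour marks the 32 members and pale colour the 24 genes also listed under the other pathways; the E1 and HECT members lie to the left and the U-box members to the right.

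All 3 E1 members were listed as down. UBA6 activates ubiquitin and the ubiquitin-like protein FAT10, and lies on chromosome 4, 67612652 to 67701179, minus strand. All positions are from GENCODE release 29 on GRCh38 and were found by gene ID. UBA3, the catalytic subunit of the enzyme that activates NEDD8, the modifier that switches cullins on, lies on chromosome 3, 69054730 to 69080408, minus strand. UBA7, which activates the interferon-induced modifier ISG15, lies on chromosome 3, 49805207 to 49813946, minus strand. The 3 enzymes thus feed different modifiers. Their transcripts differ in composition, with a GC content of 35.7% in UBA6, 39.2% in UBA3 and 58.3% in UBA7.

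Of the 8 E2 members, 2 were listed as up and 6 as down. UBE2O, listed as up, is a large enzyme that acts as E2 and E3 at once (chromosome 17, 76389451 to 76453206, minus strand). UBE2Z, also listed as up, takes its ubiquitin or FAT10 from UBA6 (chromosome 17, 48908369 to 48929056, plus strand). UBE2Z and the E1 that charges it were therefore listed in opposite directions. Among the E2 members listed as down, UBE2C works with the anaphase-promoting complex in mitosis (chromosome 20, 45812576 to 45816957, plus strand). BIRC6, a very large inhibitor of apoptosis with an E2 domain, lies on chromosome 2, 32357028 to 32618899, plus strand, and its longest coding part has 14571 bases. UBE2E3 lies on chromosome 2, 180967248 to 181076585, plus strand, and UBE2Q2 on chromosome 15, 75843285 to 75901078, plus strand. Both are E2 enzymes, and GENCODE names 8 pseudogenes after UBE2Q2 and 4 after UBE2C, whose reads may be shared with them.

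UBE2N and UBE2NL were both listed as down, and the pair is uncertain as 2 results. UBE2N, on chromosome 12, 93405673 to 93442262, minus strand, builds the ubiquitin chains used in DNA repair and NF-kB signalling. UBE2NL, on chromosome X, 143884071 to 143885255, plus strand, is a copy with 1 exon that GENCODE types as a polymorphic pseudogene. The UBE2NL transcript of 1185 bases aligned to that of UBE2N over 1151 bases with 95.5% identity, and the longest identical run was 82 bases. Reads that fall within such runs cannot be assigned to 1 of the 2 genes, and not given in the sources used here was how the authors treated them. UBE2N also has 39.5% of its exonic bases under exons of NUDT4 on the opposite strand.

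All 6 HECT members were listed as down. NEDD4, which ubiquitinates membrane receptors and channels, lies on chromosome 15, 55826922 to 55993746, minus strand, and WWP1, a relative with the same domain plan, on chromosome 8, 86342738 to 86478420, plus strand. The HERC family, HECT ligases that carry RCC1-like repeats, gave 3 members. HERC1 lies on chromosome 15, 63608618 to 63833942, minus strand, HERC3 on chromosome 4, 88592423 to 88708542, plus strand, and HERC4 on chromosome 10, 67921899 to 68075348, minus strand. HERC1 has the longest coding part of all members, with 14583 bases. Gene spans of the 6 ran from 116120 bases in HERC3 to 225325 in HERC1, and transcript GC content from 37.7% in NEDD4 to 47.0% in HERC1. The 2 HECT genes that the other pathways took out were split: SMURF1 was listed as up and its close relative SMURF2 as down, both ligases that restrain TGF-beta signalling.

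The 2 U-box members and 3 of the 4 RING ligases that act without a cullin were listed as up. Over the whole pathway, U-box genes came to 2 up and 1 down and these RING genes to 5 up and 5 down. RHOBTB1 and RHOBTB2, described below with the receptors of CUL3, also stood in the RING list, although they act with a cullin. With both counted there, the members of that class were 3 up and 3 down. PRPF19, the ligase of the spliceosome, lies on chromosome 11, 60890730 to 60906588, minus strand, and UBOX5, a nuclear U-box protein, on chromosome 20, 3107573 to 3160196, minus strand. Of the RING ligases listed as up, CBLB tags activated receptor tyrosine kinases and T-cell signalling proteins (chromosome 3, 105655461 to 105869552, minus strand). PML builds nuclear bodies in which proteins are modified with SUMO (chromosome 15, 73994673 to 74047812, plus strand). TRIM32, a TRIM family ligase known for its role in muscle, lies on chromosome 9, 116687302 to 116701300, plus strand. The member of this class listed as down was MID1, a TRIM family ligase of microtubules that controls the phosphatase PP2A, on chromosome X, 10445310 to 10833654, minus strand. Its span of 388345 bases is the longest of all members. PIAS1, a SUMO ligase that restrains cytokine signalling, was listed as down (chromosome 15, 68054179 to 68198603, plus strand), and 30.3% of its exonic bases lie under exons of CALML4 on the opposite strand.

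Of the 3 cullin scaffolds among the members, 1 was listed as up and 2 as down. CUL7, which forms a ligase with FBXW8 and is mutated in the human growth disorder called 3M syndrome, was listed as up (chromosome 6, 43037617 to 43053945, minus strand). CUL3, which binds receptors with a BTB domain, was listed as down (chromosome 2, 224470150 to 224585397, minus strand), as was CUL5, which binds receptors with a SOCS box (chromosome 11, 108008733 to 108107776, plus strand). The BTB receptors of CUL3 were split. KEAP1, the sensor that hands NRF2 to CUL3 for degradation, was listed as up (chromosome 19, 10486120 to 10503741, minus strand). KLHL13, which acts on Aurora B in mitosis, was listed as down (chromosome X, 117897813 to 118117340, minus strand). The atypical GTPases RHOBTB1 (chromosome 10, 60869438 to 61001440, minus strand) and RHOBTB2 (chromosome 8, 22987417 to 23020199, plus strand) were listed as down too. SOCS3, the feedback inhibitor of interleukin-6 receptor signalling that joins CUL5 through its SOCS box, was listed as down (chromosome 17, 78356778 to 78360077, minus strand). For RHOBTB2, 22.8% of the exonic bases lie under exons of a gene known only by a clone name on the opposite strand. Not given in the sources used here was whether the libraries kept strand.

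The 24 changed genes of the pathway that also stand under the other pathways had 4 up and 20 down. Their share up was 16.7%, against 32.5% over all changed genes, most of which were down. The listed subunits and activators of the anaphase-promoting complex, the ligase that drives exit from mitosis, were 6 and all down (ANAPC1, ANAPC4, ANAPC7, ANAPC13, CDC20 and CDC27). UBE2C, their E2, had the same direction. Cullin-RING parts were down as well, with the scaffolds CUL1 and CUL4B, the RING subunit RBX1 and the receptors SKP2, DDB2, ERCC8 and FBXO2. The RING ligases BRCA1, FANCL, BIRC2 and MAP3K1 were down, and the ligases TRAF6, of NF-kB signalling, and SYVN1, of the endoplasmic reticulum, were up. The E2 enzymes of the endoplasmic reticulum were split, with UBE2J2 up and UBE2G2 down, and the U-box ligase UBE4B was down. Over the whole pathway, cullin scaffolds, RING subunits and adaptors came to 1 up and 5 down, and substrate receptors to 1 up and 8 down.

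The proteasome degrades the tagged proteins. Of the 64 genes of its KEGG pathway 12 were called changed, against 25.2% of the background genes, and 6 of these were up and 6 down, against 32.5% up over all changed genes. Those up were the core subunit PSMB4, the base ATPase PSMC4, the lid subunit PSMD8, the ubiquitin receptor ADRM1, the activator PSME3 and the inhibitor PSMF1. Those down were the core subunits PSMA2, PSMA3 and PSMA4, the immunoproteasome subunit PSMB9, the ATPase PSMC6 and the small subunit SHFM1. The pathway Protein processing in endoplasmic reticulum has 190 genes, which include genes of the ubiquitin pathway, 7 of them changed (2 up and 5 down). How many of the 190 lie outside the ubiquitin pathway is unknown, so no share called is set against 25.2%. Of its changed genes outside the ubiquitin pathway, 67 in all, 47 were up and 20 down (70.1% up), against the same 32.5%.

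Of the 32 members, 20 stand under no other pathway of the table, with 5 up and 15 down, and 12 stand under others too, with 4 up and 8 down. Among all changed genes under 1 pathway, 320 of 893 were up (35.8%), and over all changed genes the share up was 32.5%. SOCS3 is under 13 pathways, CBLB and PML under 7 each, and KEAP1 and NEDD4 under 4 each. The pathway shared by the most members is Endocytosis, with CBLB and PML up and NEDD4 and WWP1 down. PIAS1 and SOCS3, both inhibitors of the JAK-STAT pathway, are listed together under it, and both were down. These numbers reflect annotation alone.

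Members listed as up had a higher median GC content in their transcripts than members listed as down, as did all changed genes. In the longest transcript of each gene, the median GC content was 56.6% over the 9 members up, from 41.4% in CBLB to 60.3% in KEAP1. The 23 members down had a median of 42.2%, from 35.7% in UBA6 to 59.99% in SOCS3. Over all changed genes the medians were 55.2% for genes up and 43.6% for genes down. All changed genes were divided by GC content into 5 classes of about equal size. In the lowest class 0 of 8 members were up, where 4.91% of all changed genes were up, and 1 of 8 in the next, where 12.5% were. In the middle class 2 of 7 members were up against 34.2% of all changed genes, in the class above it 2 of 2 against 51.2%, and in the highest 4 of 7 against 59.8%. Over all changed genes the share up was higher in each class than in the one below it, whereas among the members it was lower in the highest class than in the class below, which holds 2 members. The part of GC content in the members' directions was not tested.

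**Figure D2:**
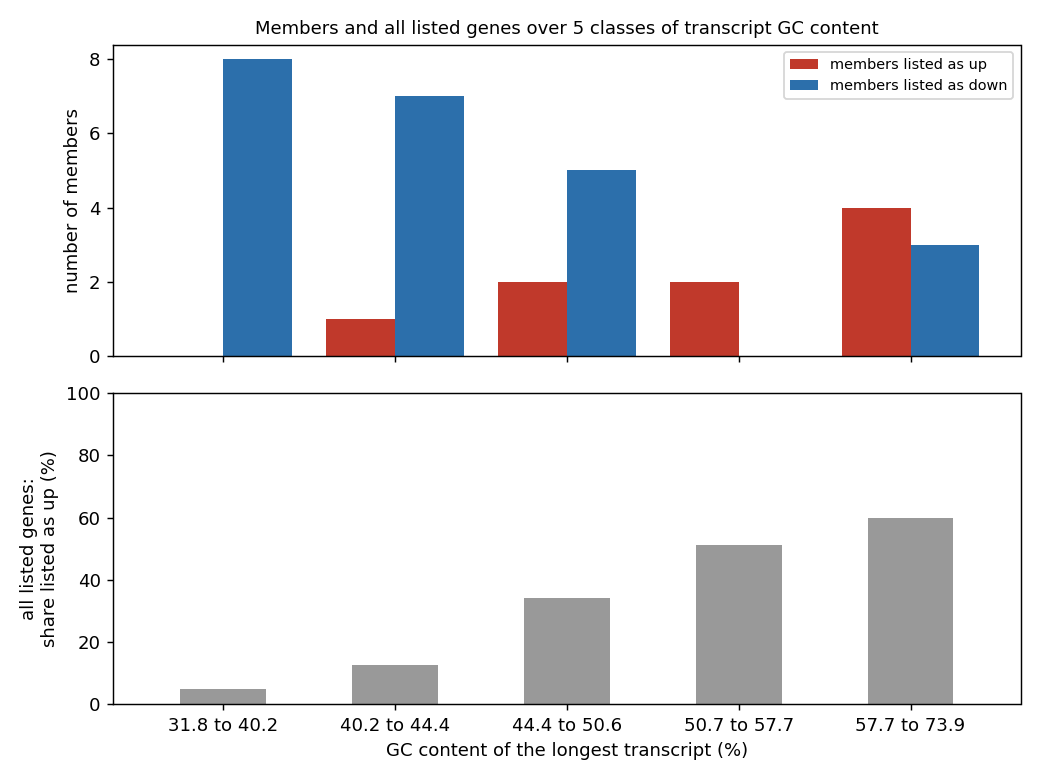
Members by direction (upper panel, number of members) and the share of all changed genes listed as up (lower panel, %) in 5 classes of about equal size by GC content of the longest transcript. The 8 members in the lowest class were all listed as down, and the share up over all changed genes runs from 4.91% in the lowest class to 59.8% in the highest.

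Some members stood against this order. CBLB was listed as up although its transcript has a GC content of 41.4% and its gene spans 214092 bases, within the range of the members down. UBA7, RHOBTB2 and SOCS3 were listed as down with 58.3%, 59.3% and 59.99%. UBE2C, a short gene of 4382 bases, was also down. These members were chosen after their values were seen. Gene span also differed by direction but was shorter for members up, with a median of 20688 bases against 115248 for members down. Over all changed genes the medians were 17892 and 52751 bases, so the median of the members down lay above that of all genes down. Transcript length depended on the measure: the longest transcript had a median of 4631 bases in members up and 5331 in members down, but the mean over all annotated transcripts of a gene had a median of 2390 in members up and 1823 in members down.

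**Figure D3:**
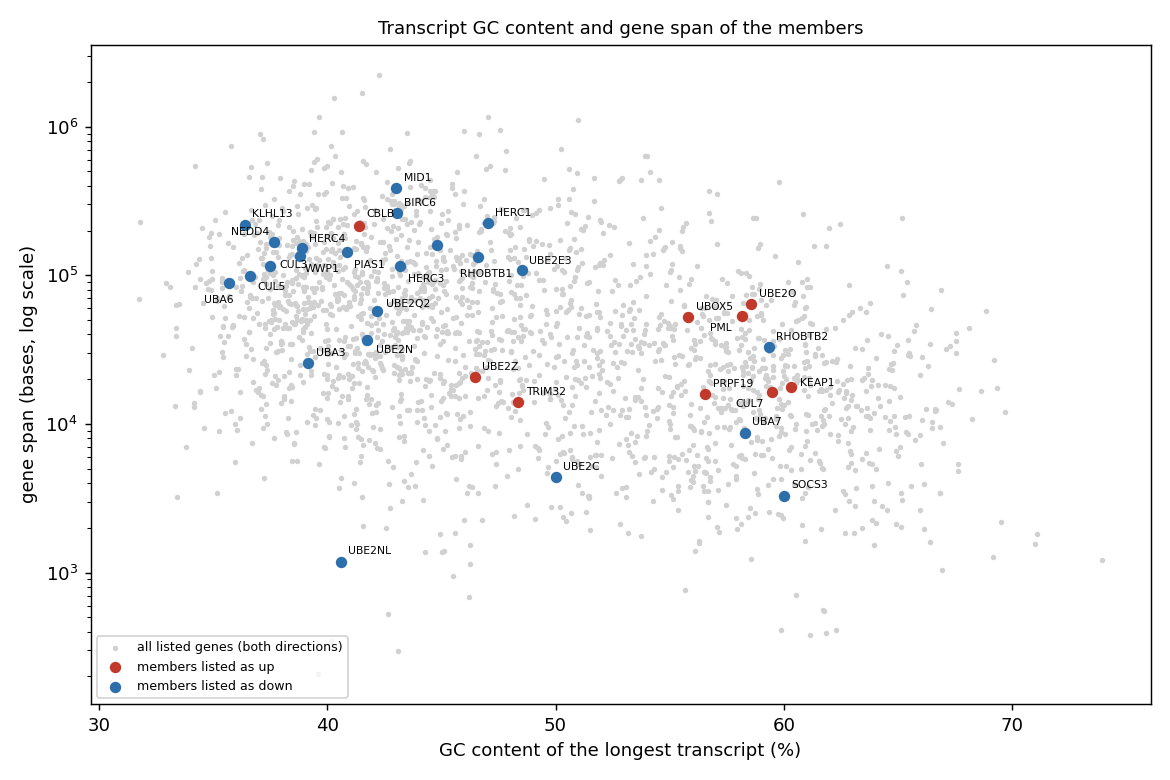
GC content of the longest transcript (%) against gene span (bases, log scale) for the 9 members listed as up, the 23 listed as down and all changed genes in grey. Most members down lie at the upper left, with low GC content and long spans, while CBLB lies among them and UBA7, RHOBTB2 and SOCS3 lie at the right with most members up.

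The median GC content of members up and members down differed in the coding part and the 3′ untranslated region (UTR), whereas the medians before the RefSeq start were close. In the coding part the median was 58.6% for members up and 44.4% for members down. In the 3′ UTR it was 52.1% and 33.7%, and of the 23 members down only UBA7, RHOBTB2 and SOCS3 were above 40%. Of the members up, CBLB (35.1%) and TRIM32 (39.4%) were below 40%. In the 250 bases before the RefSeq start, which RefSeq gives for 6 members up and 17 down, the medians were 67.8% and 68.4%. Over all changed genes with such a stretch both medians were 65.6%. The number of CG pairs in it had a median of 22.5 in members up and 24 in members down. The lowest stretches belong to NEDD4 and KLHL13, both down, with 1 CG pair each.

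**Figure D4:**
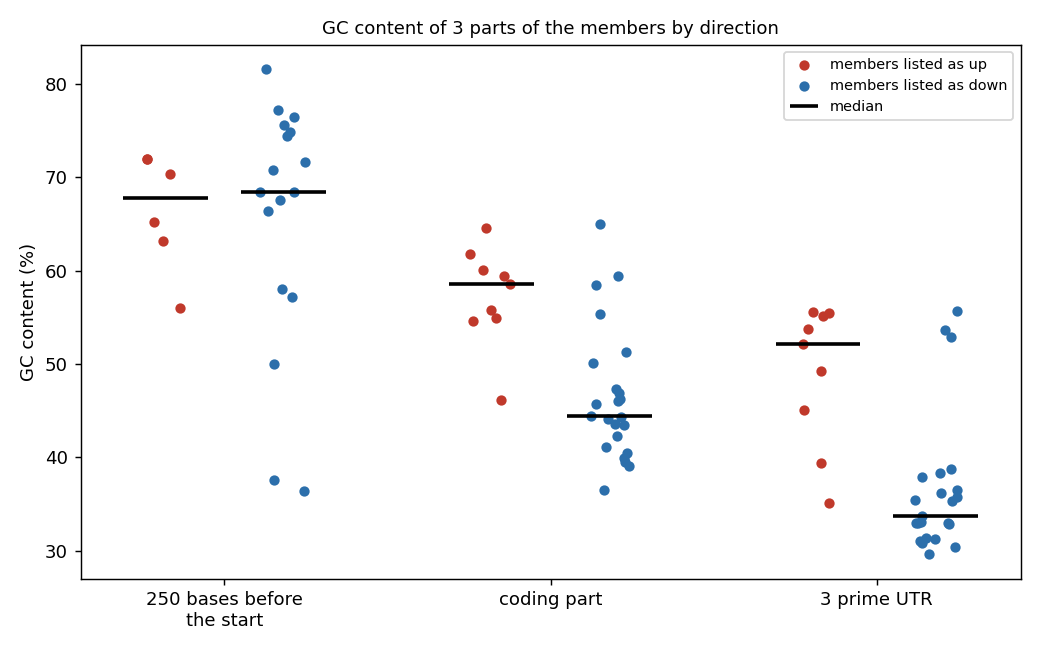
GC content (%) of the 250 bases before the RefSeq start, the coding part and the 3′ UTR for members listed as up (left of each pair) and down (right), 1 point per member with a black line at the median. In the coding part and the 3′ UTR the medians stand apart (58.6% and 44.4%; 52.1% and 33.7%), and before the RefSeq start they are close (67.8% and 68.4%).

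The stretches before the RefSeq start are shown for pairs that act together and were listed in opposite directions, KEAP1 with its scaffold CUL3 and UBE2Z with its E1 UBA6. They are from RefSeq on GRCh38.p14, each 250 bases long, written 5′ to 3′ on the strand of the gene, with the GC box GGGCGG or its reverse complement CCGCCC in capitals. KEAP1 and UBE2Z were up, and CUL3 and UBA6 down. GENCODE places the outermost start of each gene further upstream: all 250 bases of the KEAP1 stretch lie within its GENCODE gene, and so do 34 bases for CUL3, 38 for UBE2Z and 24 for UBA6.
KEAP1, chr19:10503357-10503606, minus strand: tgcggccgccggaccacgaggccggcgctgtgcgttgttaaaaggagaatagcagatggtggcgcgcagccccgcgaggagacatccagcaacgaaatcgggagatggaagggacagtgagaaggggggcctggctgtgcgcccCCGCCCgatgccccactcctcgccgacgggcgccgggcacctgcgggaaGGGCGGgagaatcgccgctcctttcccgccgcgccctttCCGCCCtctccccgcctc
CUL3, chr2:224585364-224585613, minus strand: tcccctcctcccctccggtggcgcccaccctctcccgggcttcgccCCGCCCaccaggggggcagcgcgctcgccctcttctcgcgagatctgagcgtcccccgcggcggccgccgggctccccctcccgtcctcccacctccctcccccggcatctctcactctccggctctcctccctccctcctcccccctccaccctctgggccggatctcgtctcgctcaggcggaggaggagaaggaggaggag
UBE2Z, chr17:48908157-48908406, plus strand: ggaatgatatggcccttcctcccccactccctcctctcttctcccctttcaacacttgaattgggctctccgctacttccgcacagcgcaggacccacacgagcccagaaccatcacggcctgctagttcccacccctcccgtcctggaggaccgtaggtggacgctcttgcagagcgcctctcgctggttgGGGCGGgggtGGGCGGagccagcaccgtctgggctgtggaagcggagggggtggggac
UBA6, chr4:67701156-67701405, minus strand: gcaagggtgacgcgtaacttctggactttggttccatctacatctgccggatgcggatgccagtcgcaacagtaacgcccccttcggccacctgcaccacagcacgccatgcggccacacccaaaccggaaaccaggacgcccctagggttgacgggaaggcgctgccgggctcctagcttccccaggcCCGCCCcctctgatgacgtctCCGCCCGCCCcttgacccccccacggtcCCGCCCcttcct
The GC content of these stretches was 70.4% for KEAP1, 74.8% for CUL3, 65.2% for UBE2Z and 66.4% for UBA6. KEAP1 held 3 GC boxes, CUL3 1, UBE2Z 2 and UBA6 4, of which a pair overlaps. In these pairs, chosen for their directions, both genes had a GC-rich stretch before the start, as most changed genes do (median 65.6%). Their longest transcripts had 60.3% and 37.5% for KEAP1 and CUL3 and 46.5% and 35.7% for UBE2Z and UBA6. Their coding parts had 61.8% and 39.5% for KEAP1 and CUL3 and 58.6% and 39.1% for UBE2Z and UBA6. For UBE2Z the longest transcript is not the one with the longest coding part.

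Across members, 11 motifs were searched on both strands of these stretches. The GC box, a site of SP and KLF factors, was in 4 of 6 members up and 12 of 17 members down. It was in 71.7% of all changed genes up, 66.8% of those down and 42.3% of 27305 RefSeq genes. For each RefSeq gene the first listed start was read, and these genes need not stand under a pathway. The shares of RefSeq genes are therefore not a like background, here and below. The CCAAT box of NF-Y (CCAAT) was in 4 of 6 members up (CBLB, PRPF19, TRIM32 and UBE2Z) and in 4 of 17 members down (HERC3, MID1, NEDD4 and RHOBTB1). It was in 36.8% of all changed genes up, 35.2% of those down and 33.0% of RefSeq genes. The core of the CRE, the site of CREB and ATF factors (TGACGT, which is part of the full CRE), was in CBLB and UBE2O, both up, and in RHOBTB1 and UBA6, both down, against 12.6% of all changed genes up, 8.73% of those down and 7.42% of RefSeq genes. The antioxidant response element of NRF2 (TGACNNNGC) was in PRPF19, up, and in HERC1 and UBE2Q2, both down, against 14.2% of all changed genes up, 11.2% of those down and 11.03% of RefSeq genes. The ETS site (CCGGAAG) was in HERC4 and UBE2N, both down, against 15.6% of all changed genes up, 10.5% of those down and 8.82% of RefSeq genes. The NRF1 site was in HERC4 and PIAS1, both down, against 9.56%, 9.31% and 5.53% of the same sets. The other motifs were in 0 of the 23 members searched. The E-box (CACGTG), one of them, was in 12.4% of all changed genes up, 7.98% of those down and 6.49% of RefSeq genes, and the full CRE (TGACGTCA) in 3.54%, 2.41% and 1.77%. The amino acid response element of ATF4 and CHOP (TGATGNAA) was in 2.83%, 1.16% and 3.19% of the same sets. The sterol response element of SREBP (TCACNCCAC) was in 0.531%, 1.25% and 0.875%, and the YY1 site (AAGATGGCG) in 1.24%, 0.665% and 0.641%. A match is a run of letters and not a bound site, and these windows leave out other starts of the same gene.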

How the data were processed

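RNA-seq was done on 1 ezetimibe culture and 1 control culture. The submitters' processing notes name StringTie 1.3.0 and HISAT2 2.0.4; build, annotation, strandedness and call threshold were not given in the sources used here. Per the file headers, the authors' deposited table gives for each pathway the numbers of changed genes, up genes and down genes, an enrichment ratio (rich factor) and a p-value with its q-value, copied here as the authors' values. Its name puts ezetimibe before control.

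The members, role lists, motifs and the rule for named genes were chosen with earlier results of these data known. The members were named with direction and position, and 1 that the rule takes is counted but not reported by name here. RHOBTB1 and RHOBTB2 stood in both the RING and the receptor list and were counted as receptors, a choice made after the table was read. Transcript features of 2237 of the 2238 genes were matched by gene ID in GENCODE release 29, from the longest transcript, and coding and UTR values from the transcript with the longest coding part. For 1768 genes, 23 of them members, the 250 bases before the RefSeq start nearest to that of the longest transcript were read. For the 27305 RefSeq genes, those before the first listed start were read. Parsing and the member rule were tested on simulated data. No test was run, since there was 1 library per condition. Cell type markers were looked up in the table as a check of the labelled line: of 12 hepatocyte markers 5 were listed, all as down, of 5 cholangiocyte markers 2 and of 5 fibroblast markers 3, also as down, of 4 immune markers 1 was up and 1 down, and of 4 endothelial markers 0 were listed. For scale, 25.2% of the background genes were called changed, and 1510 of the 2238 changed genes were down. How many of these markers are in that background is unknown. The table gives no levels, so presence cannot be read from it. The tools were pandas 2.3.3, Biopython 1.88, Matplotlib 3.10.9, SciPy 1.17.1 and NumPy 2.4.6 under Python 3.11.15.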

Additional observations from a re-analysis of the deposited data

How the results depend on the processing

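Of 45 alternative values, 38 stayed near the reported ones: counts within 1.5 times, the share up within its exact 95% interval, and medians within the quartiles of the members. That interval, 13.7% to 46.7%, takes genes as independent units. The alternatives share genes with the reported set, so staying within it is weak support. Many of the 38 could not move, so their number does not measure stability. No member stands under more than 20 pathways. RHOBTB1 and RHOBTB2 change only the down counts of the RING and receptor classes. UBE2NL is listed as down, so leaving it out cannot change the count up. The same holds for PIAS1, RHOBTB2 and UBE2N, the members left out for opposite-strand overlap, which are all listed as down. With none of the other pathways subtracted, 43 genes were down (13 up, a share up of 23.2%), against 23 as reported. Among members under no other pathway, 5 were up and 15 down. The share up ran from 23.2% to 31.0% over the alternatives, the highest without members with 20% or more of their exonic bases under another gene on the opposite strand, and was 29.03% without UBE2NL. These last 2 alternatives, the reading of the coding part alone and the medians without UBE2NL were added after the data were seen. RHOBTB1 and RHOBTB2, receptors of CUL3, also stood in the RING list. With both counted there, the RING class had 3 members down and the receptors 2. The mean over all transcripts gave median lengths of 2390 bases for members up and 1823 for members down, with 4631 and 5331 for the longest transcript, so the order of the directions turned; the cause was not tested. Leaving out members by protein identity was intended but not run, since protein sequences were not used here. No library could be left out with 1 per condition. No paired analysis was possible because each condition has 1 library and no test was run. Depth is unknown, so no limit on detection can be given.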

Other observations

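Genes on either side of the ligases were also listed. Of 17 genes of ubiquitin and ubiquitin-like proteins in the list, 6 were listed as changed, 5 of them as up (against 32.5% up over all changed genes), among them the polyubiquitin gene UBB, the autophagy modifiers GABARAP and MAP1LC3B, and FAU, whose ubiquitin-like part is fused to a ribosomal protein. Of 57 deubiquitinases and related proteases, 5 were listed as changed, against 25.2% of the background genes; the table names only changed genes under a KEGG pathway, so how many of the 57 are in its background is unknown. TNFAIP3, an inhibitor of NF-kB signalling, and OTUD5 were up, and USP1, which acts in crosslink repair, ATXN3 and YOD1 were down. The transcript GC content of the 2 proteases up was 49.5% and 59.5%, and that of the 3 down lay between 36.0% and 40.9%.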
